A study of Mus musculus with 4 samples.

Results

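Restriction factors are host proteins that block a virus inside the cell, and 10 mouse genes of this kind or close to it were followed here in MC38, a wild-type mouse colon carcinoma line. They are Ifitm1, Ifitm2 and Ifitm3, the deaminase genes Adar and Apobec3, the dNTP hydrolase gene Samhd1, the exonuclease genes Isg20 and Trex1, and the apoptosis-linked genes Xaf1 and Shisa5. The members were chosen by name, as the rows of the count table whose NCBI gene IDs map to these symbols, and all 10 were found among its 27179 genes. RNA-seq was carried out on 4 cultures, which were a control under normoxic conditions (20% oxygen), a control under hypoxic conditions (1.5% oxygen), and IFN-γ-treated cells under each of these oxygen levels. The study's methods give IFN-γ at 5 ng/mL for 24 h as its usual treatment, with exceptions named only for comparisons of doses and times, to which the RNA-seq does not belong. Each condition had 1 library, so no value below has a replicate error.

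IFN-γ binds a surface receptor and signals through JAK kinases, and the response acts on GAS elements in the promoters of target genes. Some of these targets, such as IRF1, are transcription factors that go on to bind IRF-type elements. IFITM proteins sit in cell membranes and hinder the fusion of enveloped viruses with them. ADAR turns adenosine into inosine in double-stranded RNA, which keeps self RNA from being sensed as foreign, and APOBEC3 deaminates cytidine in the DNA copies of retroviruses. SAMHD1 cleaves dNTPs and so starves reverse transcription, ISG20 degrades RNA from its 3′ end, and TREX1 degrades DNA in the cytoplasm. XAF1 was named for its binding to XIAP, an inhibitor of caspases, and Shisa5 (also called Scotin) codes for a membrane protein linked to p53-dependent apoptosis.

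Totals ran from 34302971 to 34537939 counts per library, so that 3 counts, the floor used here, corresponded to between 0.0869 and 0.0875 CPM, the counts on a gene scaled to the library total. Every member stood far above this floor, from 220 counts (Trex1 in the normoxic control) to 27410 (Ifitm3 in the normoxic IFN-γ library). Both stimuli were visible in their known targets. Irf1 rose by 2.43 on the log2 scale with IFN-γ, and all 8 hypoxia response genes on the list rose with hypoxia, by 0.74 to 2.14. Of 9 colon epithelium markers, 4 (Epcam, Cdh1, Krt18 and Cdx2) had at most 2 counts in any library and the list summed to 3.27 to 3.81 CPM, so these markers did not show the labelled cell type. Vim, a mesenchymal gene, had 74838 to 81307 counts. The other 6 mesenchymal markers summed to 104 to 140 CPM, mostly from Col3a1 (2233 to 3238 counts) and Pdgfra (1077 to 1341 counts). Col1a1, Col1a2, Dcn and Pdgfrb had at most 105 counts in any library. Col3a1 was the 1 of 7 mesenchymal markers to pass the test with IFN-γ (-0.39). The part of these markers in the results was not tested. Of 12 leukocyte markers, 8 had at most 3 counts in every library, and the summed level of the list was 5.40 to 7.75 CPM, mostly from Cd68. The leukocyte genes Ptprc and Cd3e had at most 12 and 1 counts. The 4 endothelial markers summed to 0.904 to 1.56 CPM. Of the 21 interferon genes looked up, 17 were at 0 in all 4 libraries and Ifnb1 had at most 2 counts. The highest was Ifnz, the only one with enough counts to test, with 6, 17, 11 and 10 counts and an adjusted p of 0.991 with IFN-γ (edgeR).

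Ifitm1, Ifitm2 and Ifitm3 are neighbours on chromosome 7 (mouse build GRCm38), and their start regions are shown because these related genes did not all pass the test with IFN-γ. Ifitm2 (140954837 to 140959686, minus strand) is followed by Ifitm1 (140967429 to 140969827, plus strand) after 7.74 kb, and Ifitm3 (141009590 to 141010744, minus strand) lies 39.8 kb further on. The windows come from RefSeq (GRCm38.p6) and run 5′ to 3′ on the gene's own strand, from 250 bases before an annotated start to 30 bases after it. Their positions are chr7:140967826-140968105 (plus strand) for Ifitm1, chr7:140955932-140956211 (minus strand) for Ifitm2 and chr7:141010715-141010994 (minus strand) for Ifitm3. Capitals mark letters that match TTCNNNGAA, the core of a GAS element, or GAAANNGAA, an IRF-type element, on either strand.
Ifitm1: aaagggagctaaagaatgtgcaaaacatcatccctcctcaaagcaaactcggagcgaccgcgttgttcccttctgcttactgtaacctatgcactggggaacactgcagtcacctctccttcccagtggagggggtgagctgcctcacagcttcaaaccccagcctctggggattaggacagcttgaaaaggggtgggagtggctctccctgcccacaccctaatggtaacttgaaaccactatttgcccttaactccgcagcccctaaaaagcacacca
Ifitm2: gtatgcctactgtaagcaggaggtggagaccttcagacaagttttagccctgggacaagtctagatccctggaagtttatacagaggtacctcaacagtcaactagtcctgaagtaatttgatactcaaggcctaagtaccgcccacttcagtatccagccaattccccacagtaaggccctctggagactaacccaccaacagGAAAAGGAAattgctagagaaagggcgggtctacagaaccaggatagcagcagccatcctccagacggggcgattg
Ifitm3: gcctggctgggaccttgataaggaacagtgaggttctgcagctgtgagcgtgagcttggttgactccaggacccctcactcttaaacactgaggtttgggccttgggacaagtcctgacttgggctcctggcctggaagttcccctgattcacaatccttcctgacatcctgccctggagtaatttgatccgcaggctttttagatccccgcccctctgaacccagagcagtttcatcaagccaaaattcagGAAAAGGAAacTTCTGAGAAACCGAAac
The Ifitm1 window had no match. The Ifitm2 window had 1 IRF-type match, which starts 46 bases before the start site. The Ifitm3 window had IRF-type matches at positions 3 and 20, counted from 1 at the start site, and a GAS-type match at position 14 that overlaps the later of them. The first IRF-type match of Ifitm3 and the match of Ifitm2 have the same letters, GAAAAGGAA. Only the Ifitm3 window is set on a start at the outer end of its gene. Those of Ifitm1 and Ifitm2 are set on starts inside the gene spans given above. The windows are therefore unlike in position, and a link between matches and the response to IFN-γ was not tested.

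Xaf1, which changed most with IFN-γ, and Isg20, the only member called for both stimuli, are shown in the same way. The Xaf1 window lies at chr11:72301379-72301658 (plus strand), and the first of 3 Isg20 windows at chr7:78913174-78913453 (plus strand).
Xaf1: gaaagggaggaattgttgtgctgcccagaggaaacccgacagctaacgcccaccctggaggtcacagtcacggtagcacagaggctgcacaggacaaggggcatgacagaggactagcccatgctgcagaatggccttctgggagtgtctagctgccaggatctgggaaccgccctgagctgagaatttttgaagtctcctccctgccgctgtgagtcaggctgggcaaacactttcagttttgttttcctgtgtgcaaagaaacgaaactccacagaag
Isg20: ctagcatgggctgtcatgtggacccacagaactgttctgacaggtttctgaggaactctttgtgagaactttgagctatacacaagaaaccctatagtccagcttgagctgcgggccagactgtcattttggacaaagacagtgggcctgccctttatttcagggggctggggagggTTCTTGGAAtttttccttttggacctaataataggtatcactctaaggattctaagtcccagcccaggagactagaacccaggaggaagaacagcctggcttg
The GAS-type and IRF-type letters did not occur in the Xaf1 window, and the Isg20 window had a GAS-type match that starts at position -73. Both windows are set on starts inside the gene spans given below. Only these exact letters were searched, so similar elements with another spacing were not counted. Over full windows, which reach 50 bases past the start, the 10 members had 20 windows, of which 5 held the GAS-type letters and 5 the IRF-type letters. Among all 32851 RefSeq windows these letters occurred in 8.30% and 8.56%. The hypoxia-type letters ACGTG or GCGTG, the core bound by HIF, occurred in 8 of the 20 windows and in 43.8% of all windows. Isg20 had 2 of them in its second window, at positions -19 and -10, and Ifitm1, also raised by hypoxia, had none. A match of letters is a description and does not show that a factor binds there.

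IFN-γ raised 7 of the 10 genes and lowered none at an adjusted p under 0.05, in an edgeR model with terms for IFN-γ and oxygen over the 4 libraries. Xaf1 rose most, to 3.09-fold, followed by Apobec3 (1.79-fold), Ifitm3 (1.67-fold), Isg20 (1.64-fold), Samhd1 (1.55-fold), Adar (1.40-fold) and Shisa5 (1.35-fold). Ifitm1, Ifitm2 and Trex1 did not pass the test. Of all 13580 genes tested, IFN-γ raised 4.76% and lowered 1.1%. The median fitted log2 change was 0.56 over the 10 members and -0.01 over all genes tested. Ordered by size among the 647 raised genes, whose median log2 change was 0.65, Xaf1 ranked 144, Apobec3 272, Ifitm3 300, Isg20 309, Samhd1 328, Adar 387 and Shisa5 415. In bulk RNA a change in the share of cells that express a gene and a change in its RNA per cell cannot be told apart. At an unadjusted p under 0.05, 1 member (Ifitm1) was lowered, and the share of all genes at that looser threshold is not given here. DESeq2 called no member lowered, where it called 16 of all genes lowered. With 4 libraries and both stimuli in the model, 1 residual degree of freedom is left for each gene. The error is therefore how far the gene strays from adding up its 2 effects, shared over all genes, and the p-values do not stand in for replicate cultures.

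**Figure D1:**
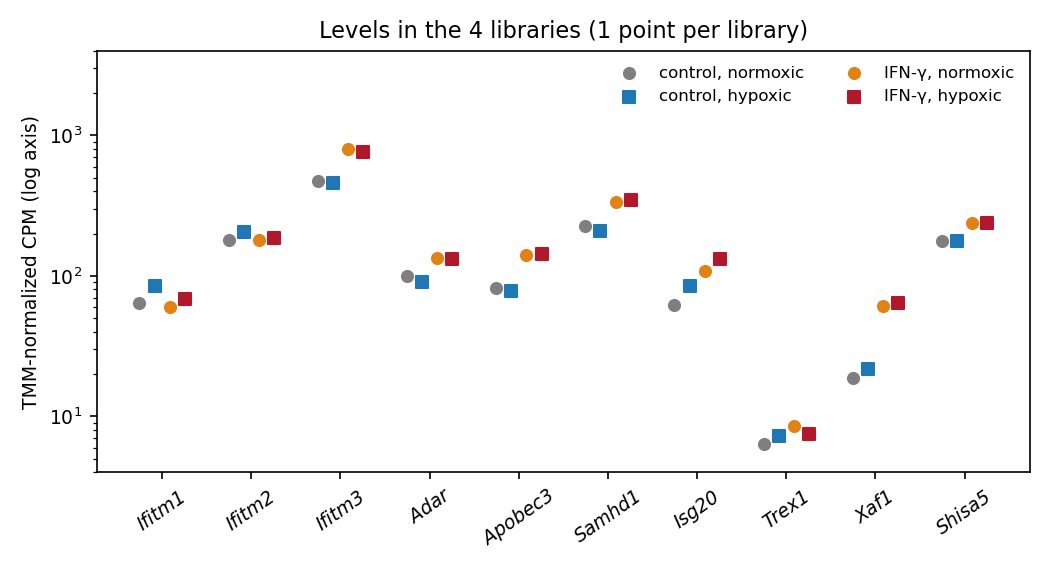
TMM-normalized CPM (log axis) of the 10 genes, with 1 point for each of the 4 libraries. Ifitm3 is the highest in every library, at 457 to 799 CPM, and both IFN-γ points of Xaf1 (61.4 and 63.7 CPM) lie far above its control points (18.7 and 21.8 CPM).

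In the following, levels are TMM-normalized CPM and are given in the order of the normoxic control, the hypoxic control, the normoxic IFN-γ library and the hypoxic IFN-γ library. Changes are fitted log2 values with their standard error (SE). Single-pair values are log2 ratios of 2 libraries, and their 95% intervals (Clopper-Pearson) cover counting error only. Adjusted p-values (edgeR, quasi-likelihood) were corrected over all genes tested by the method of Benjamini and Hochberg. The range over 6 alternative fits stands beside the value of each of the 10 genes with IFN-γ and of each member called with hypoxia. In the model used here edgeR put the spread of every gene at the common trend, and the p-values of strong changes were many orders of magnitude smaller than in the alternatives.

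Among the IFITM genes, Ifitm3 alone passed the test with IFN-γ. Its level was 476, 457, 799 and 759 CPM, and the fitted change was 0.74 (SE 0.05, adjusted p = 1.66e-48, alternatives 1.12e-32 to 0.00313). The rise was nearly the same at both oxygen levels, 0.75 (0.72 to 0.77) in the normoxic pair and 0.73 (0.70 to 0.76) in the hypoxic pair. Ifitm2 was at 180, 204, 181 and 187 CPM, with a fitted change of -0.06 (SE 0.06, adjusted p = 0.768, alternatives 0.583 to 1). Its IFN-γ libraries lay between its 2 controls. Ifitm1 was at 64.0, 84.3, 59.9 and 68.7 CPM, and its fitted change of -0.20 (SE 0.07) missed the threshold (adjusted p = 0.0609, alternatives 0.0652 to 0.999). The pair values of Ifitm1 were both below 0, at -0.10 (-0.18 to -0.01) under normoxic and -0.29 (-0.37 to -0.22) under hypoxic conditions, while those of Ifitm2 were 0.01 (-0.04 to 0.06) and -0.13 (-0.18 to -0.08).

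Scaled by exon length, Ifitm3 was also the most abundant of the family in the controls, at 703 CPM per kb in the normoxic control against 274 for Ifitm2 and 58.5 for Ifitm1. Its share of the summed level of the 3 genes was 67.9% and 63.4% in the normoxic and hypoxic controls, and 78.1% and 76.3% in the IFN-γ libraries. The summed level itself went from 1035 and 1063 CPM per kb in the controls to 1509 and 1468 CPM per kb with IFN-γ. The 3 genes resemble each other and related loci. Of the 31-base words in their transcripts, 55.5% for Ifitm2, 20.5% for Ifitm3 and 11.6% for Ifitm1 also occur in other annotated genes, so the split of reads between the copies is uncertain for Ifitm2 and Ifitm3. The main partners of Ifitm2, Gm45717 and Gm8865, have no row under these symbols in the count table.

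Both deaminase genes rose. Apobec3 (chr15:79892058-79918218, plus strand) was at 81.8, 77.8, 141 and 144 CPM, a fitted change of 0.84 (SE 0.06, adjusted p = 3.10e-39, alternatives 1.08e-20 to 0.00244). Adar (chr3:89714469-89753455, plus strand) was at 99.2, 89.7, 134 and 131 CPM, a fitted change of 0.49 (SE 0.06, adjusted p = 9.83e-14, alternatives 5.19e-07 to 0.0431). For each of them both IFN-γ libraries lay above both controls. The third RefSeq window of Adar, at a start inside the gene, held 1 GAS-type and 2 IRF-type matches, and the other two held none of either. The counts are per gene and do not tell which start was used. Adar overlaps Chrnb2 on the opposite strand, which had 69 to 101 counts. Apobec3 overlaps D730005E14Rik on the same strand, which had 98 to 122 counts, and Cbx7 on the opposite strand. Of the 31-base words of Apobec3, 12.1% occur in other genes, with 6.35% in D730005E14Rik.

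Samhd1 (chr2:157097534-157135096, minus strand) was at 228, 208, 333 and 345 CPM. Its fitted change with IFN-γ was 0.64 (SE 0.05, adjusted p = 4.79e-30, alternatives 7.13e-16 to 0.0114). The pair value was lower under normoxic conditions, 0.55 (0.51 to 0.59), than under hypoxic conditions, 0.73 (0.68 to 0.77). Of the genes listed under dNTP supply, which bear on the pool that SAMHD1 cleaves, 1 of 9 tested rose, against 4.76% of all genes tested. The gene that rose was Rrm2, the small subunit of ribonucleotide reductase, with a fitted change of 0.17 (adjusted p = 0.0124). With hypoxia 1 of the 9, the thymidylate synthase gene Tyms, fell by 0.25, where 6.83% of all genes tested were lowered.

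Of the exonuclease genes, Isg20 passed the test with IFN-γ and Trex1 did not. Isg20 (chr7:78913396-78920396, plus strand) was at 62.5, 84.0, 107 and 132 CPM, and its fitted change with IFN-γ was 0.72 (SE 0.06, adjusted p = 3.05e-27). Over the alternatives its adjusted p ran from 8.53e-14 to 0.136, the highest when 2 libraries were set against 2 without a term for oxygen. Trex1 (chr9:109057932-109059723, minus strand) was the least counted member, at 6.35, 7.20, 8.54 and 7.44 CPM. Its fitted change was 0.24 (SE 0.14, adjusted p = 0.496, alternatives 0.52 to 1). The pair value was 0.43 (0.17 to 0.69) under normoxic conditions, and the interval of the hypoxic pair spanned 0 (0.05, -0.21 to 0.31). Nearly all of the Trex1 transcript (97.6% of its words) also lies in GENCODE transcripts of Atrip on the same strand, so that the Trex1 counts are uncertain. In the RefSeq coordinates the genes do not overlap and lie 23 bases apart, and the annotation used for the counts is not given. The row of Atrip, which codes for the partner of the ATR kinase, held 627, 525, 750 and 486 counts.

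Of the apoptosis-linked genes, Xaf1 (chr11:72301461-72313733, plus strand) was at 18.7, 21.8, 61.4 and 63.7 CPM. Its fitted change of 1.63 (SE 0.08, adjusted p = 7.79e-91, alternatives 1.74e-38 to 0.000642) was the only one of the 10 above 1 on the log2 scale. The normoxic pair gave 3.29-fold and the hypoxic pair 2.92-fold. Shisa5 (chr9:109038567-109057792, plus strand) was at 176, 178, 238 and 240 CPM, a fitted change of 0.43 (SE 0.06, adjusted p = 5.27e-13, alternatives 6.02e-08 to 0.0442). Shisa5 ends 139 bases from Trex1 on the other strand, and no word of its transcripts is shared with another gene. None of the 5 tested genes of the XIAP family passed the test with IFN-γ, either raised or lowered, and Xiap itself had a fitted change of 0.04. With hypoxia 1 of the 5, Birc2, rose by 0.35, where 8.23% of all genes tested were raised.

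**Figure D2:**
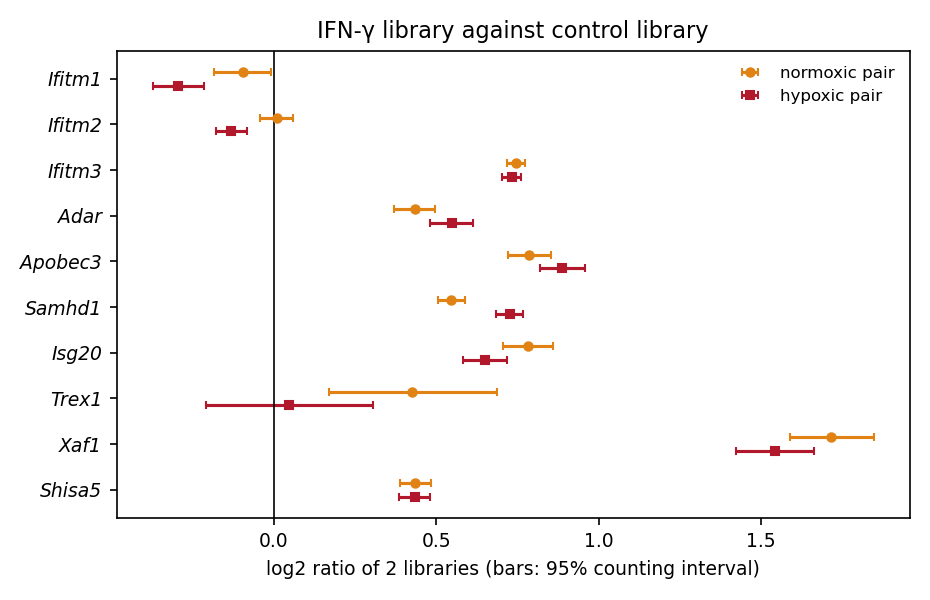
Log2 ratio of the IFN-γ library to the control library for each of the 10 genes, in the normoxic pair (circles) and the hypoxic pair (squares), with bars for the 95% counting interval. Xaf1 stands furthest to the right (1.72 and 1.54), Ifitm1 is the one gene with both points left of 0 (-0.10 and -0.29), and the bars of Trex1 are the widest.

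Per exon length, the order in the normoxic control was Ifitm3 (703 CPM per kb), Ifitm2 (274), Ifitm1 (58.5), Shisa5 (53.4), Isg20 (33.6), Samhd1 (24.9), Adar (12.2), Apobec3 (8.65), Trex1 (5.54) and Xaf1 (3.98). With IFN-γ under normoxic conditions Xaf1 stood at 13.1 CPM per kb, above Trex1 at 7.45. Shisa5 (72.2) and Isg20 (57.8) then stood above Ifitm1 (54.7). The length is that of all annotated exons together, so genes with several long transcripts, such as Apobec3, appear lower than they would per transcript. Without replicates, it cannot be said which neighbours in this order differ beyond the spread between cultures.

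**Figure D3:**
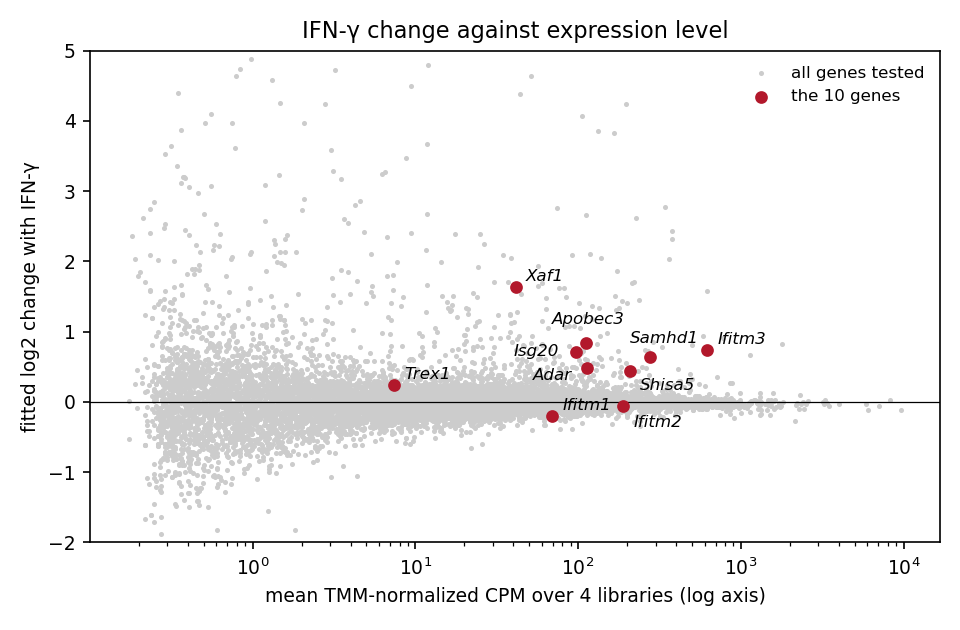
Fitted log2 change with IFN-γ against the mean TMM-normalized CPM over the 4 libraries (log axis) for all genes tested (grey) and the 10 genes (red), with 20 genes outside the plotted range of -2 to 5. Xaf1 (1.63) is the highest of the 10, a group from Shisa5 to Apobec3 lies between 0.43 and 0.84, and Ifitm1, Ifitm2 and Trex1 lie near the band of genes around 0.

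Hypoxia raised 2 of the 10 genes, Isg20 and Ifitm1, and lowered none. Of all genes tested it raised 8.23% and lowered 6.83%, and the median fitted log2 change was -0.00 over the members and 0.00 over all genes. At an unadjusted p under 0.05, 3 members were raised and none lowered. The share of all genes at that looser threshold is not given here, so this count cannot be set against the 8.23%. DESeq2 called 1 member raised and none lowered, where it called 360 of all genes raised and 203 lowered. The fitted change of Isg20 was 0.36 (SE 0.06, adjusted p = 6.70e-07, alternatives 0.000135 to 0.639), or 1.28-fold. It was higher in the hypoxic library both without IFN-γ, by 0.43 (0.35 to 0.51), and with it, by 0.30 (0.23 to 0.36). Ifitm1 had a fitted change of 0.30 (SE 0.07, adjusted p = 0.000247, alternatives 0.00271 to 0.248), or 1.23-fold, with pair values of 0.40 (0.32 to 0.48) without and 0.20 (0.11 to 0.28) with IFN-γ. The call of Ifitm1 was lost with DESeq2 (adjusted p = 0.0526), and both calls were lost when 2 libraries were set against 2 without a term for IFN-γ.

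The other 8 members did not pass the test for hypoxia, with fitted changes from -0.09 (Adar) to 0.13 (Xaf1). Samhd1 was at -0.04, Apobec3 at -0.02, Trex1 at -0.02 and Shisa5 at 0.01. Ifitm2 was at 0.12 (adjusted p = 0.168), with 0.18 (0.14 to 0.23) in the pair without IFN-γ and 0.04 (-0.01 to 0.10) in the pair with it. Ifitm3 was at -0.07 (adjusted p = 0.412), with both pair values just below 0, so that the neighbours Ifitm1 and Ifitm3 had opposite signs for each stimulus. Next to Isg20, 2.19 kb away, lies Aen, which codes for a related exonuclease. Aen had a fitted change with hypoxia of -0.36 (adjusted p = 3.18e-05) against 0.36 for Isg20.

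**Figure D4:**
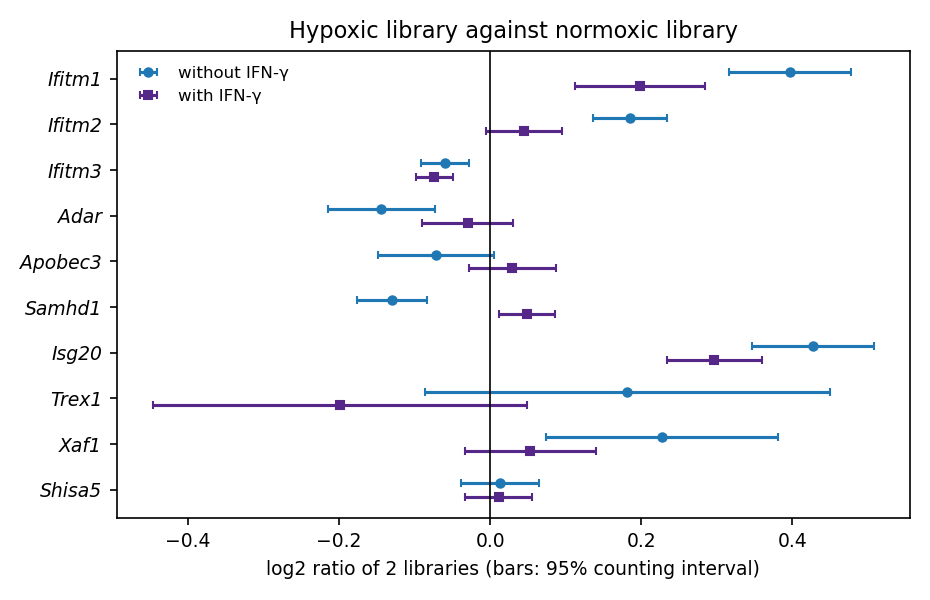
Log2 ratio of the hypoxic to the normoxic library for each of the 10 genes, without IFN-γ (circles) and with IFN-γ (squares), with bars for the 95% counting interval. Isg20 (0.43 and 0.30) and Ifitm1 (0.40 and 0.20) lie right of 0 in both pairs, and Samhd1 lies left of 0 without IFN-γ (-0.13) and right of it with IFN-γ (0.05).

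Whether the IFN-γ change depends on oxygen could not be tested with 1 library per condition, and the differences are given with counting intervals. The difference (hypoxic minus normoxic pair, log2) was largest below 0 for Trex1, at -0.38 (-0.74 to -0.02), and largest above 0 for Samhd1, at 0.18 (0.12 to 0.24). It was -0.20 for Ifitm1, -0.17 for Xaf1, -0.14 for Ifitm2, -0.13 for Isg20, 0.11 for Adar and 0.10 for Apobec3. For Ifitm3 (-0.01) and Shisa5 (-0.00) the interval reached no further than 0.07 to either side of 0. The interval left out 0 for 7 of the 10 members, against 34.5% of the 10443 genes that reached 100 counts in all 4 libraries. Intervals narrow with the count. Where every library held 2000 counts or more for a gene the share was 48.3%, and among the 8 members at this depth it was 6 of 8. Over the 10443 genes, the central 95% of differences ran from -0.36 to 0.40, and Trex1 alone of the 10 lay outside it. The Trex1 value rests on an uncertain count. The row of Atrip, whose GENCODE transcripts hold nearly all of the Trex1 transcript, had a difference of -0.37 (-0.61 to -0.14). Whether the 2 rows share reads is not known, since the annotation used for the counts is not given.

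Of 24 family relatives of the 10 genes, 11 were expressed well enough to test, and IFN-γ raised 1 and lowered none, against 4.76% and 1.1% of all genes tested. This was Apobec1, a cytidine deaminase that edits RNA, which had 269, 294, 489 and 469 counts and a fitted change of 0.78 (adjusted p = 3.46e-09). Ifitm5 had at most 39 counts and Ifitm6 at most 10, so that Ifitm1, Ifitm2 and Ifitm3 made up almost all of the family's counts. Adarb1, which codes for another editing deaminase, had a fitted change of -0.17 (adjusted p = 0.319). Hypoxia lowered 1 relative, Aen, and raised none, against 6.83% and 8.23% of all genes tested.

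Of 17 restriction factors outside the 10 that were tested, 13 rose with IFN-γ and none fell, against 4.76% and 1.1% of all genes tested. The median fitted log2 change of the 17 was 0.53. The largest changes were those of Rsad2, which codes for viperin (1.31), Sp100, a component of nuclear bodies (1.28), Mov10, an RNA helicase (1.22), and Trim56, a ubiquitin ligase (1.06). Hypoxia raised 4 of the 17, among them Rsad2 (0.33, adjusted p = 4.64e-07), and lowered 1, Plscr1 (-0.18). Of all genes tested, hypoxia raised 8.23% and lowered 6.83%. Of 10 genes listed for the clearing and sensing of nucleic acids in the cell, 3 rose with IFN-γ, against 4.76% of all genes tested. The list also holds Atrip, the neighbour of Trex1, and Mavs, which codes for a signalling adaptor. Zbp1, a sensor of Z-form nucleic acid that shares its Z-binding fold with ADAR, rose most (4.38), followed by Ifih1, the RNA sensor MDA5 (0.81), and Cgas, the DNA sensor (0.28). With hypoxia 1 of these 10, Zbp1, rose (0.36), and 3 fell, Atrip (-0.44), Dnase2a (-0.27) and Cgas (-0.24). The shares over all genes tested are again 8.23% raised and 6.83% lowered.

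**Figure D5:**
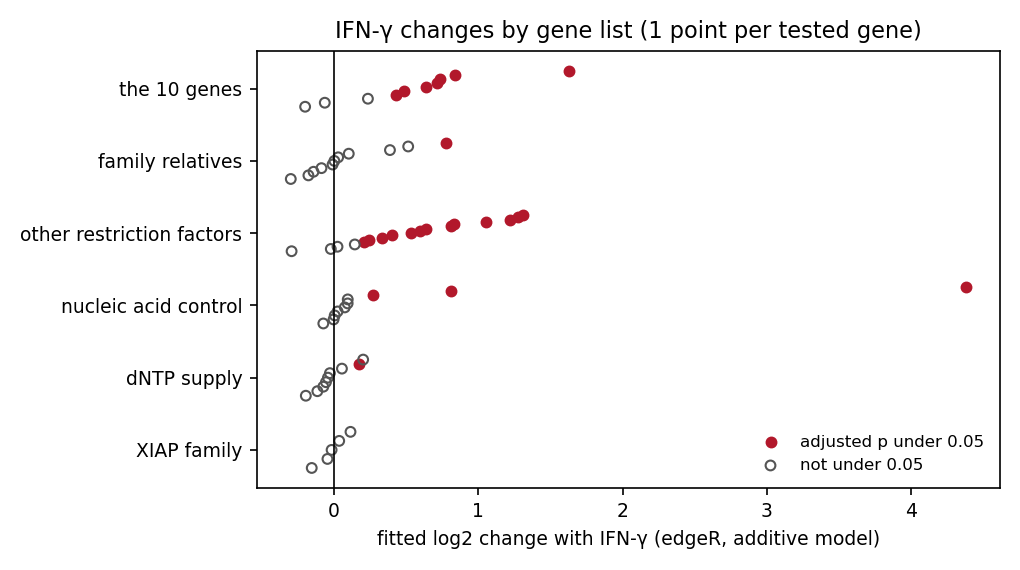
Fitted log2 change with IFN-γ for each tested gene of 6 lists, with filled points for an adjusted p under 0.05 (edgeR) and open points for the rest. Filled points to the right of 0 number 7 of 10 in the top row, 13 of 17 among other restriction factors, 1 of 11 among family relatives and 0 of 5 in the XIAP family, where 4.76% of all genes tested were raised, and the differences between lists were not tested.

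The genes with the most similar profiles over the 4 libraries were found by distance between log2 levels centred on their mean, among 10695 genes. Nearest to Xaf1 were Cmpk2 (distance 0.0759), Vwa5a (0.0793) and Ifi44 (0.125). Nearest to Apobec3 were Lgals3bp (0.0476), Irf9 (0.0534) and Chpt1 (0.0588), and nearest to Ifitm3 were Tbrg1 (0.0551), Parp3 (0.083) and Irf9 (0.0865). Irf9, a subunit of the complex that acts downstream of type I interferon receptors, was thus among the 3 nearest for both Apobec3 and Ifitm3. With 4 libraries these distances are a description only.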

How the data were processed

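RNA-seq libraries were made from poly-A RNA of MC38 cells, strand-specific and paired-end, on a DNBSEQ instrument, with 1 library for each of 4 conditions. The paper's text speaks of total RNA, while the labels describe poly-A selection. The authors deposited raw whole-number counts per gene, without normalization, after alignment with HISAT2. The submitters' processing notes name featureCounts and mm10. Its strand setting, its annotation and its handling of reads that match several genes are not given in the sources used here.

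Gene IDs were matched to symbols with RefSeq (25275 of 27179). Counts were tested with edgeR 4.0.16 (R 4.3.3), using the quasi-likelihood test, TMM, the default filter (minimum 10), additive terms for oxygen and IFN-γ, and Benjamini-Hochberg adjustment at 0.05. Pair ratios used 0.5 added counts. The alternatives were DESeq2 size factors, total counts, DESeq2 1.42.0, no filter, at least 10 counts in every library, 2 libraries against 2, a log2 change of at least 1, single pairs, and 5 added counts. A gene was called uncertain where 20% or more of its 31-base words occur in another gene. Scripts were tested on simulated data. Coordinates are from RefSeq GRCm38.p6, which shares its primary sequence with mm10, and exon lengths and words from GENCODE M21.

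All 10 genes were named for each stimulus and where the IFN-γ response is set against oxygen, the 3 with the largest IFN-γ change for the nearest profiles, and of every other list at most the 4 called genes with the largest change for each stimulus, with a few further genes named after their values were seen. The members and lists were chosen with earlier results of these data known. Variation between replicate cultures was not measured.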

Additional observations from a re-analysis of the deposited data

Results flagged for a closer look

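Samhd1 changed in opposite directions with hypoxia in the 2 pairs. Without IFN-γ its level was 228 CPM under normoxic and 208 CPM under hypoxic conditions, a log2 ratio of -0.13 (-0.18 to -0.08). With IFN-γ it was 333 and 345 CPM, a log2 ratio of 0.05 (0.01 to 0.09). The difference between these ratios was 0.18, which is the same quantity as the difference between its IFN-γ changes. It was not tested, since each condition has 1 library and the intervals cover counting error only.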

How the results depend on the processing

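Of 120 values (10 genes, 2 stimuli, 6 alternative fits), 116 kept their direction and their side of the threshold, none changed sign, and 4 lost their call. These were Isg20 with IFN-γ (2 against 2), Isg20 with hypoxia (2 against 2) and Ifitm1 with hypoxia (2 against 2 and DESeq2). Among the 10 genes, hypoxia raised 2 in the model used here, 1 by DESeq2, 0 by 2 against 2 and 0 past a log2 change of 1, and IFN-γ raised 7, or 1 past that size. Counts over all genes moved more. IFN-γ raised 647, but 353 by DESeq2, 239 by 2 against 2 and 238 past a log2 change of 1. It lowered 149, but 99 with DESeq2 size factors, 16 by DESeq2, 71 without a filter, 74 with at least 10 counts in every library, 3 by 2 against 2 and 8 past a log2 change of 1. Hypoxia raised 1117, but 360 by DESeq2, 150 by 2 against 2 and 107 past a log2 change of 1, and lowered 927, but 203, 26 and 8 in the same order. The 2 against 2 fit counts the other stimulus as spread. For the rest the cause was not tested. Of 40 single-pair values, 28 had an interval that held the fitted change and 12 did not, and adding 5 counts moved none of the 40 out of its interval. The prior degrees of freedom were infinite in the model used here and 23.2 with DESeq2 size factors. The model used here already pairs libraries of the same oxygen level or treatment through its terms, and 2 against 2 is the fit without that pairing. Depth limits Trex1 most, whose intervals were the widest of the 10.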
